A study of Mus musculus with 6 samples.

Results

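The cells described here are the hormone-storing enteroendocrine cells of mouse small intestinal organoids that make peptides rather than serotonin. They were chosen by their own transcripts. A cell with 1000 or more genes and under 20% of its unique molecular identifiers (UMIs, each counting one captured mRNA molecule) in mitochondrial genes was kept, and a kept cell was a member when Chga and Chgb together reached 10 per 10000 UMIs, Tph1 and Neurog3 were each under 2 UMIs, and Gcg, Cck, Gip, Ghrl, Sst, Nts and Pyy together reached 5 UMIs. Of 87954 kept cells in 6 libraries, 756 were members. The organoids came from crypts of adult mice and were sequenced after 3 days. In 4 libraries, WT organoids had received the vehicle DMSO (-EIPA, 2 libraries) or EIPA, a small-molecule inhibitor of sodium-proton exchange (+EIPA, 2 libraries). The other 2 libraries came from WT organoids infected with lentivirus carrying a doxycycline-inducible Cas9-GFP and a guide RNA, selected with puromycin and grown up as single clones, without (-Dox, 1 library) or with doxycycline (+Dox, 1 library). The +Dox cells were sorted as live and GFP-positive, and all other cells only as live, so sort and doxycycline cannot be told apart.

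Enteroendocrine cells are rare, scattered cells of the gut epithelium that arise from crypt progenitors through a transient burst of the transcription factor Neurog3. They pack peptide hormones with granins into dense granules, sense nutrients with receptors on the lumen side, and release the granules on calcium entry. Enterochromaffin cells use the enzyme Tph1 to make serotonin, whereas the peptide-hormone cells make products such as GLP-1 from Gcg, cholecystokinin from Cck, GIP from Gip, ghrelin from Ghrl, somatostatin from Sst, neurotensin from Nts and peptide YY from Pyy.

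The sequence just upstream of Gip, Gcg and Cck is shown because Gip and Gcg had no UMI in the members of either CRISPR library while Cck was detected in the members of all 6. Each is the 200 bases before the start of transcription, written 5′ to 3′ on the gene's own strand, from the RefSeq table of GRCm38.p6, and all 7 hormone genes matched that table. Capitals mark TAAT on either strand (TAAT or ATTA), the core recognised by many homeodomain factors. The Gip window is chr11:96024345-96024544 on the plus strand, the Gcg window is chr2:62483654-62483853 on the minus strand, and the Cck window is chr9:121495695-121495894 on the minus strand.
Gip: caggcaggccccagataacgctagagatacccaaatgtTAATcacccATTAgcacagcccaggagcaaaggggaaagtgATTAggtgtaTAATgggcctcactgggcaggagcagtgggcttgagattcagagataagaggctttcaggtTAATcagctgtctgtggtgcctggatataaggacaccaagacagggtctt
Gcg: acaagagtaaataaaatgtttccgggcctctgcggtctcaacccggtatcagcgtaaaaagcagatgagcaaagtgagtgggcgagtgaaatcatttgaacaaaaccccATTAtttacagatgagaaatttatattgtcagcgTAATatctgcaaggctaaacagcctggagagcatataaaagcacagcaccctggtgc
Cck: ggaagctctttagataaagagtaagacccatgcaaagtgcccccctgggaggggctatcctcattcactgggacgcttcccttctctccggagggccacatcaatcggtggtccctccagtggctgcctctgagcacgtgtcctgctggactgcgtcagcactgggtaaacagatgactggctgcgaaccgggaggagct
Gip held 5 matches, Gcg held 2 and Cck held 0. Of the hormone genes not shown, Sst and Nts also had no UMI in the CRISPR members, and their windows held 1 match each. Ghrl, like Cck, was detected in the members of all 6 libraries, and every window of Ghrl and of Pyy held 0. Pyy, with no match, had 0 UMIs in the -Dox members and 5 UMIs, in 1 cell, in the +Dox members. The same letters stood in 47.0% of 32851 promoters of this length, so a match is common and describes the letters alone.

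The label was checked on genes that the choice of cells had not used. Neurod1, a transcription factor of the whole enteroendocrine lineage, stood at 409 to 523 CPM (UMIs of a gene per 1000000 UMIs of the summed cells) in the members of the 4 WT libraries, at 271 CPM in -Dox and at 381 CPM in +Dox. Insm1, another factor of that lineage, stood at 225 to 315 CPM in WT, 271 CPM in -Dox and 421 CPM in +Dox. Cells of an enterocyte gate held 1 to 3 CPM of Neurod1 and 2 to 5 CPM of Insm1. Isl1, a factor of the peptide-hormone branch, was at 388 and 402 CPM without EIPA, 322 and 336 CPM with it, 271 CPM in -Dox and 31.8 CPM in +Dox. Pcsk1, the convertase that cuts several prohormones, was at 119 to 131 CPM in WT members and had no UMI in the members of either CRISPR library. A count of 0 has an upper bound of 91.0 CPM for -Dox and of 29.3 CPM for +Dox (exact Poisson 95% interval, counting error only). Both bounds lie below the WT values. Transcripts of other cells were also present. The summed CPM of 10 Paneth markers was 4091, 12444, 3656 and 6858 in the WT libraries (-EIPA 1 and 2, then +EIPA 1 and 2), 1801 in -Dox and 4168 in +Dox, whereas 10 non-epithelial markers summed to at most 9.19 CPM, with 7 to 10 of the 10 at 0.

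Members were shallower than the other cells. Their median depth was 6329 to 7115 UMIs in WT, 4499.5 in -Dox and 5668.5 in +Dox, against 11477.5 to 17020 for all kept cells. Scrublet called 14.5%, 9.93%, 23.2% and 11.1% of the WT members doublets, in the same order, and 12.5% of the members in each CRISPR library, against 8.42% to 16.1% of kept cells. No member barcode occurred in more than 1 library, and 854 of 87097 kept barcodes (0.981%) did.

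Gip was the most abundant of the 7 hormones in WT members, with 34639, 31090, 38037 and 39470 CPM. Cck followed with 19573, 22494, 20016 and 25788 CPM. The lowest Gip library stood above the highest Cck library. Ghrl (6539, 7156, 5175 and 3069 CPM) and Gcg (5521, 5938, 4897 and 4040 CPM) overlapped each other over the libraries. Nts was at 2388, 1873, 6513 and 5211 CPM. Between -EIPA and +EIPA libraries, Nts and Gip did not overlap and lay higher with EIPA, Gcg and Ghrl did not overlap and lay lower, and the other 3 hormones overlapped. The Nts levels rest on few cells, since 37 cells whose leading hormone was Nts held 21861 of the Nts UMIs of WT members. These numbered 4, 9, 15 and 9 by library, and 4, 8, 12 and 3 without called doublets, where -EIPA and +EIPA overlapped. Of all genes tested, 12.3% lay higher and 17.8% lower without overlap. Pyy (1000 to 1470 CPM) and Sst (926 to 1442 CPM) were lowest and overlapped. These levels come from the genes that chose the cells and from 3′ counts, so they are a description and carry no test. Sct, which encodes secretin and was not used to choose the cells, reached 5693, 6291, 7605 and 8932 CPM.

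**Figure D1:**
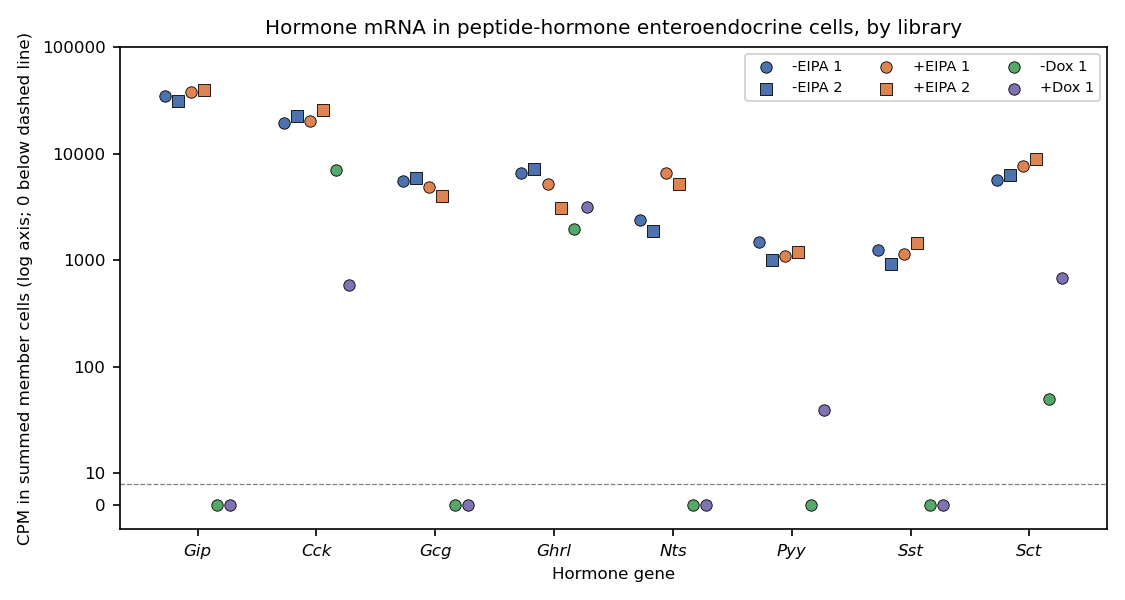
CPM of the hormone genes in the members of each of the 6 libraries, each point being the summed member cells of 1 library, on a log axis with values of 0 drawn below the dashed line. Gip and Cck lie highest in the 4 WT libraries, and Gip and Gcg have no UMI in the members of -Dox or +Dox.

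In the CRISPR libraries the hormone set was narrower. Gcg, Gip, Sst and Nts had no UMI in the members of either library. The 8 members of -Dox held Cck at 6957 CPM (6169 to 7819, exact Poisson 95% interval), and the 16 members of +Dox held it at 588 CPM (461 to 738). A single -Dox member held 192 of the 282 Cck UMIs of those members, a spread between cells that the interval does not cover. Over all kept cells Cck stood the other way, at 2.23 CPM in -Dox and 3.20 CPM in +Dox. In +Dox, 467 of 757 Cck UMIs lay in cells with 2 or more UMIs of Neurog3. Ghrl reached 1949 CPM (1543 to 2429) without doxycycline and 3160 CPM (2857 to 3486) with it. Over all kept cells, Gcg had 0 UMIs in both CRISPR libraries against 5974 to 19976 in each WT library, and Gip had 0 UMIs in -Dox and 8 in +Dox against 49853 to 126567. Sst had 3 and 8 UMIs over all kept cells of -Dox and +Dox. Nts had 0 in -Dox but 454 in +Dox, all of them outside the members. The CRISPR organoids differ from the WT organoids by infection, puromycin selection, growth from single clones, culture and library at once, and these cannot be told apart.

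The members usually carried more than 1 hormone. Of 732 WT members, 242 had at most 1 of the 7 hormones at 5 or more UMIs, 214 had 2 and 276 had 3 or more. The leading hormone still took a median of 88.6% of a cell's hormone UMIs. Each member was placed in a class by its leading hormone, which gave 301 Cck, 249 Gip, 103 Ghrl, 37 Nts, 21 Gcg, 18 Sst and 1 Pyy cells in WT, with 2 ties left unplaced. In the Cck class, 53.2% of cells had 5 or more UMIs of Gcg and 50.8% had as many of Ghrl, and none of the 301 had as many of Sst. In the Gip class, 62.2% had 5 or more UMIs of Cck, 10.8% of Gcg and none of Nts. All 21 cells of the Gcg class had 5 or more UMIs of Cck, and 11 of Pyy. In the Sst class, 13 of 18 had as many of Gip. Free RNA gives a floor for such shares. In the enterocyte gate, whose cells should lack these hormones and were deeper, 0.0320% to 1.34% of cells in a WT library had 5 or more UMIs of a given hormone. With called doublets left out, 421 of 628 WT members (67.0%) had 2 or more hormones at 5 or more UMIs, against 490 of 732 (66.9%) with them. Gcg was then found in 57.0% of the Cck class and Cck in 61.9% of the Gip class.

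The share of members among kept cells was 0.928% (0.768 to 1.11, exact binomial 95% interval) and 1.49% (1.32 to 1.68) in the -EIPA libraries. Organoids given EIPA had 1.37% (1.18 to 1.59) in replicate 1 and 1.14% (0.968 to 1.32) in replicate 2. The groups overlapped. The means were 1.21% ± 0.40 (SD, n = 2) and 1.25% ± 0.167 (SD, n = 2), a ratio of 1.04 (two-sided exact permutation test, p = 1, smallest possible p = 0.33). The ratio was 1.48 within experiment 1 and 0.760 within experiment 2, which are replicates 1 and 2. The share was 0.0455% (0.0196 to 0.0896) in -Dox and 0.132% (0.0757 to 0.215) in +Dox, below all 4 WT libraries, with 1 library a group and no test. Among cells rich in Chga and Chgb, members made up 24.7%, 32.1%, 28.1% and 31.7% in WT, 6.15% (2.69 to 11.8) in -Dox and 5.33% (3.08 to 8.52) in +Dox. Cells with 2 or more UMIs of Neurog3 made up 25.3% to 31.5% of the same population in WT, 49.2% in -Dox and 52.3% in +Dox. The 24 cells with 5 to 7 hormone UMIs, just inside, had 182 CPM of Isl1, and the 40 cells with 3 to 4, just outside, had 103 CPM. The 43 cells with 10 to 12 Chga and Chgb UMIs per 10000 had 230 CPM of Isl1, and the 42 cells with 8 to under 10 had 251 CPM.

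**Figure D2:**
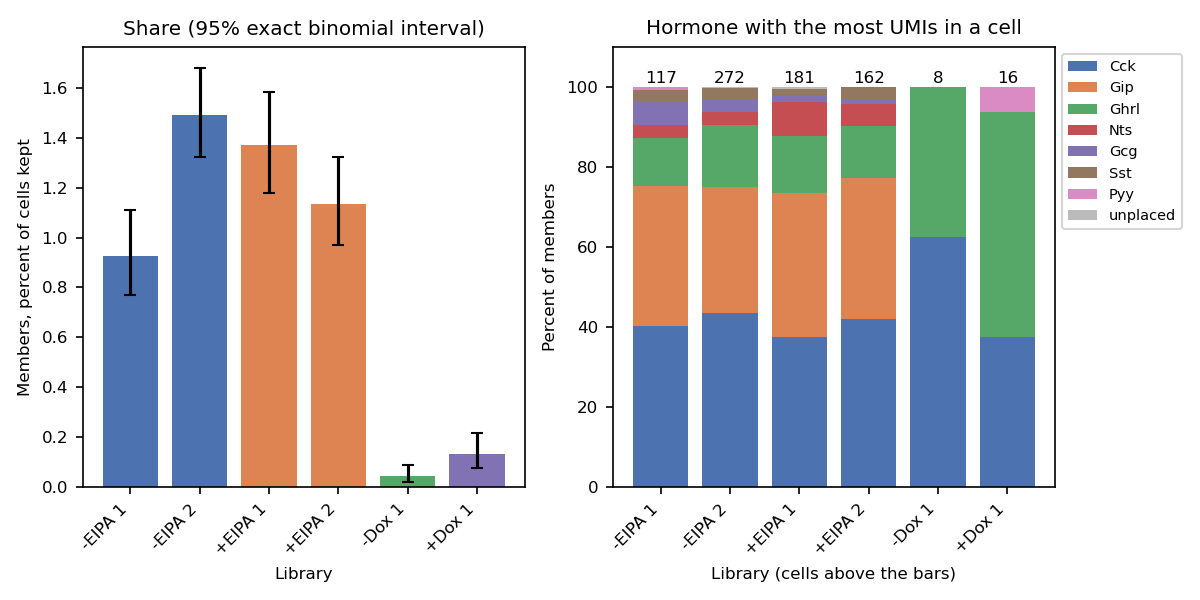
Share of members among kept cells in each library, with exact binomial 95% intervals, and, at right, the percent of members in each hormone class, with the number of members above each bar. The WT libraries lie between 0.928% and 1.49%, and the CRISPR libraries at 0.0455% and 0.132%.

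The Gip class was set against the other members of the same WT libraries. Of 7338 genes tested, 411 rose (5.6%) and 229 fell (3.12%), 8.72% in all, by edgeR's quasi-likelihood test with the library as a block and an adjusted p threshold of 0.05. Ramp3, a co-receptor that retunes calcitonin-family receptors, was at 66.1, 35.9, 67.3 and 52.5 CPM in the Gip class and at 0, 2.19, 0.966 and 3.16 CPM in the others. The groups did not overlap, and the fitted log2 fold change was 4.92 ± 0.38 (SE, adjusted p = 8.7e-10). Cnr1, the cannabinoid receptor CB1, was at 93.1, 67.4, 73.3 and 84.7 CPM against 6.18 to 8.43 CPM (log2 3.53 ± 0.24). Fabp5, a fatty acid carrier, was at 6721, 8803, 7077 and 9641 CPM against 1439 to 2194 CPM, a log2 fold change of 2.41 ± 0.08. The transcription factor Rfx6 rose by 1.15 ± 0.13 on the log2 scale, and Pax6, which binds hormone gene promoters, by 0.53 ± 0.10. Hhex and the lipid receptor gene Gpr119 rose by 1.35 ± 0.24 and 1.00 ± 0.22, and Gpr119 did not pass with DESeq2. Among genes that fell, Onecut3 was at 0 to 6.05 CPM in the Gip class against 75.8 to 133 CPM (log2 -5.28 ± 0.32). Ffar1, a receptor for long-chain fatty acids, fell by 1.04 on the log2 scale, and Ffar2, a receptor for short-chain fatty acids, by 2.71. Of 14 genes of endoplasmic reticulum folding tested, 8 rose and none fell. Of 12 immediate early genes 7 rose and 1 fell, and of 8 goblet markers 3 rose and 1 fell. Of 8 Paneth markers tested, 6 rose in the fit, but none of the 8 was higher without overlap. In replicate 2 of +EIPA all 8 were lower in the Gip class than in the other members, as for Defa24, at 1602 against 4414 CPM. The summed Paneth marker level in the Gip class was 9592, 26899, 7051 and 3349 CPM, against 2576, 5101, 4700 and 12409 CPM in the enterocyte gate. The part of Paneth and goblet transcripts in the other differences was not tested.

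The Cck class differed from the other members in 46 of 7804 genes that were higher (0.589%) and 142 that were lower (1.82%), 2.41% in all. DESeq2 called 8 higher and 40 lower, and without called doublets edgeR called 112 higher and 151 lower. Onecut3 rose, from 9.44, 26.3, 48.4 and 29.7 CPM in the other members to 97.8, 165, 77.6 and 160 CPM in the Cck class (log2 2.06 ± 0.25, adjusted p = 2.16e-05). It was not particular to that class, since the 37 Nts cells, which are among the other members, held 249 CPM (195 to 313, exact Poisson 95% interval) when summed over the 4 WT libraries. Ttr, the thyroxine carrier transthyretin, rose by 1.14 ± 0.16, Ffar1 by 0.84 ± 0.14 and Sct by 0.78 ± 0.16 on the log2 scale. Sct was at 6104, 9642, 9368 and 12493 CPM in the Cck class against 5344, 3584, 6011 and 6135 CPM, so the groups overlapped only through replicate 1 of -EIPA. Iapp, which encodes amylin, fell by 4.82 on the log2 scale, and Cnr1 by 2.60. Isl1 fell by 0.64 and Rfx6 by 0.88. All 8 Paneth markers tested fell, and their sum in the Cck class was 1264, 3742, 1771 and 5760 CPM. The 3 class comparisons share cells, because each class is among the others of the next, so their results are not independent.

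The Ghrl class had 236 of 6937 genes higher (3.4%) and 262 lower (3.78%), 7.18% in all. Mboat4, the acyltransferase that puts the octanoyl group on ghrelin, was at 113, 85.6, 109 and 125 CPM in the Ghrl class and at 10.2, 11.7, 3.66 and 11.5 CPM in the other members, with no overlap (log2 3.39 ± 0.32, adjusted p = 1.63e-08). Acsl1, which activates long-chain fatty acids, was at 236, 243, 132 and 125 CPM against 19.6 to 24.9 CPM (log2 2.91 ± 0.24). On the log2 scale, Isl1 rose by 0.89 ± 0.14, Ffar2 by 1.66 ± 0.23, and Neurod2 and Sox4, both active in immature endocrine cells, by 2.5 ± 0.34 and 1.34 ± 0.14. Of 21 enteroendocrine transcription factors tested, 7 rose and 3 fell. Fabp5 fell by 3.36 on the log2 scale, from 3624 to 5168 CPM down to 184 to 963 CPM. Sct fell by 2.26, Scg2 by 2.03 and Gpr119 by 2.40. Of 5 granins and secretogranins tested 4 fell, and of 13 absorptive lineage genes 8 fell. None of 8 Paneth markers passed the test.

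**Figure D3:**
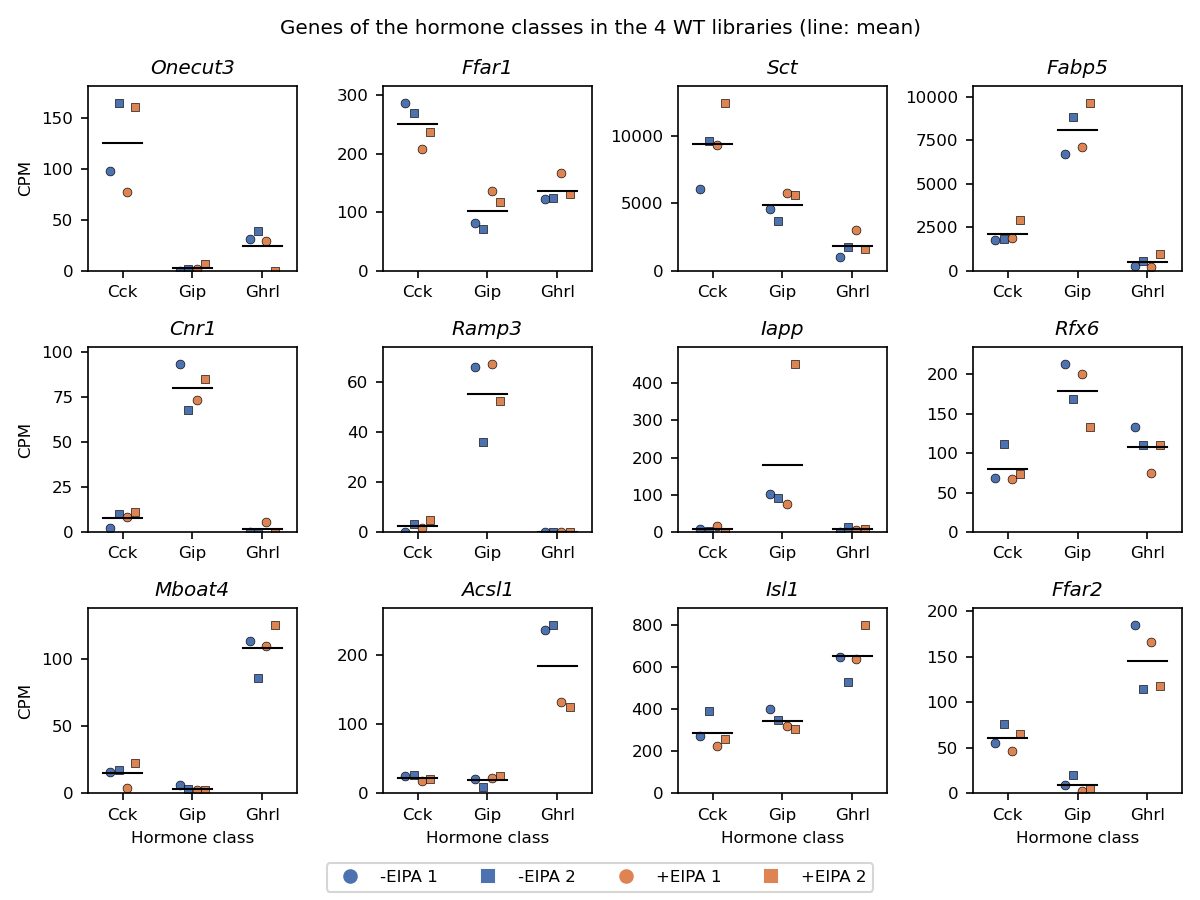
CPM of selected genes in the Cck, Gip and Ghrl classes of the 4 WT libraries, each point being 1 class in 1 library and each line the mean of the 4. Ramp3 and Cnr1 lie highest in the Gip class, Onecut3 highest of these 3 classes in the Cck class, and Mboat4 in the Ghrl class.

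The remaining classes were too small for a test, and the Sst and Gcg classes were summed over the 4 WT libraries, with counting error only. In the 18 Sst cells, Hhex, a factor of somatostatin cells, was at 665 CPM (516 to 845, exact Poisson 95% interval), against 45.8 CPM in the Gip class and 2.55 CPM in the Cck class. Iapp was at 2979 CPM (2652 to 3336), against 177 CPM in the Gip class. Glp1r, the receptor for GLP-1, was at 89.4 CPM (40.9 to 170) from 9 UMIs. In the 21 Gcg cells, Etv1 was at 1079 CPM (925 to 1252), against 488 CPM in the Cck class, and Pyy at 2772 CPM (2521 to 3042). The Gcg cells also held Paneth transcripts, such as Defa24 at 5843 CPM and Itln1 at 2797 CPM, although Defa22 had no UMI. The part of those transcripts in these values was not tested.

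Members were then compared with the 701 enterochromaffin-gate cells, which share the Chga and Chgb limit but have 2 or more UMIs of Tph1. Only members had to reach the limit on hormone UMIs. Differences in enterochromaffin genes and in genes that go with the hormones are thus partly set by this choice and are a description. Of 8863 genes tested over all 6 libraries, 621 were higher in members (7.01%) and 658 lower (7.42%), 14.4% in all, by edgeR with the library as a block. Isl1 was higher in 6 of 6 libraries, where the enterochromaffin-gate cells held 0.866 to 15.3 CPM (log2 6.62 ± 0.25, adjusted p = 4.91e-13). Ffar1 was at 219, 178, 191, 167, 49.3 and 39.7 CPM in members (the WT order above, then -Dox and +Dox) against 6.98, 2.98, 1.73, 1.41, 30.6 and 1.57 CPM. Ffar1 was higher in every library (log2 5.81 ± 0.25), with the smallest gap in -Dox. There it rested on 2 UMIs in 8 members, set against 9 enterochromaffin-gate cells. Scg2, a granin, rose by 4.84 ± 0.23, Sct by 3.66 ± 0.16 and Cpe, a carboxypeptidase of prohormone processing, by 1.37 ± 0.18 on the log2 scale. Of 21 enteroendocrine transcription factors tested, 9 were higher and 5 lower in members. Pax6 (3.09 ± 0.24), Etv1 (2.91 ± 0.24) and Onecut3 (3.56 ± 0.32) were among the higher, although Pax6 had no UMI in the +Dox members and 22.0 CPM in that library's enterochromaffin-gate cells.

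Enterochromaffin genes were lower, a direction partly set by the Tph1 limit. Lmx1a, a factor of enterochromaffin cells, was at 0 to 7.94 CPM in members against 30.6 to 131 CPM (log2 -5.80 ± 0.23). Tac1, which encodes substance P, was at 77.6, 42.9, 104, 60.9, 321 and 63.5 CPM against 2816, 2259, 1562, 2099, 1406 and 764 CPM (log2 -4.71 ± 0.28). Trpa1, an irritant-sensing channel, fell by 4.67, and Slc18a1, which loads amines into granules, by 1.93. Of 9 enterochromaffin markers tested, 8 were lower and 1 higher. Pcsk1 was lower in members by 1.02 on the log2 scale, and Rab3c and Snap25, of the exocytosis machinery, by 3.55 and 1.27. None of these genes was lower in every library. Of 22 exocytosis genes tested, 4 were higher and 4 lower. Of 9 Paneth markers tested, 4 were lower in members too, as were 5 of 12 cycling markers and 4 of 8 stem cell markers. Of 17 absorptive lineage genes, 7 were lower and 3 higher. Without called doublets, 80 of 99, 162 of 216, 120 of 195 and 102 of 138 enterochromaffin-gate cells were left in WT. In -Dox 8 of 9 and in +Dox 24 of 44 were left. Of the members, 100 of 117, 245 of 272, 139 of 181 and 144 of 162 were left in WT. The part of called doublets in these list counts was not tested.

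The 2444 Neurog3-gate cells (2 or more UMIs of Neurog3) were the other reference. Without called doublets, 202 of 250, 482 of 596, 258 of 364 and 282 of 353 of them were left in WT. In -Dox 224 of 321 and in +Dox 382 of 560 were left. The part of called doublets in the list counts below was not tested. Of 10136 genes tested, 2060 were higher in members (20.3%) and 2093 lower (20.6%), 41% in all. Members had to pass the limits on Chga plus Chgb and on the hormones, and the Neurog3-gate cells did not, so the counts of secretory genes below are partly set by the choice of cells and are a description. All 5 granins and secretogranins tested rose, with Scg2 at 345 to 484 CPM in WT members against 0 to 5.79 CPM (log2 6.54 ± 0.19, adjusted p = 2.31e-19). Of 10 prohormone processing genes 7 rose and none fell, among them Cpe (2.72 ± 0.12), Pam (2.69 ± 0.11), which amidates peptides, and Pcsk1 (1.38 ± 0.11). Of 19 exocytosis genes 15 rose and 1 fell, and of 11 excitability genes 9 rose and 1 fell. Fewer were higher in every library, namely 1 granin or secretogranin, 2 processing genes, 8 exocytosis genes and 5 excitability genes. The share of all genes tested with the same direction in every library was not counted, here or for the lists below. These counts therefore cannot be set against it. Sct rose by 5.20 ± 0.19, Ffar1 by 4.86 ± 0.15 and the somatostatin receptor Sstr5 by 3.69 ± 0.27. Transcription factors split, with 9 of 21 higher and 7 lower. Etv1 (3.68 ± 0.11), Pax6 (3.62 ± 0.14) and Isl1 (2.84 ± 0.13) were higher. Neurod2 fell by 1.85, Sox4 by 1.79, the Notch ligand gene Dll1 by 1.56 and Pax4 by 1.1. All 12 cycling markers and all 8 stem cell markers fell in the fit, Mki67 by 0.91 on the log2 scale, and 4 of each list were lower in every library. Beside them, 7 of 10 goblet markers (list median -0.59) and 4 of 9 Paneth markers were lower, and of 13 immediate early genes 10 were higher and 1 lower (list median 0.79). The part of those transcripts in the result was not tested. Of 16 pH regulators tested, 2 rose, of which Car8, a carbonic anhydrase relative, by 2.04 ± 0.11, and 6 fell. Pcsk1 stood at 39.7 to 57.1 CPM in the Neurog3-gate cells of WT and at 1.81 and 0.862 CPM in those of -Dox and +Dox, and the enterochromaffin-gate cells of both CRISPR libraries had none.

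**Figure D4:**
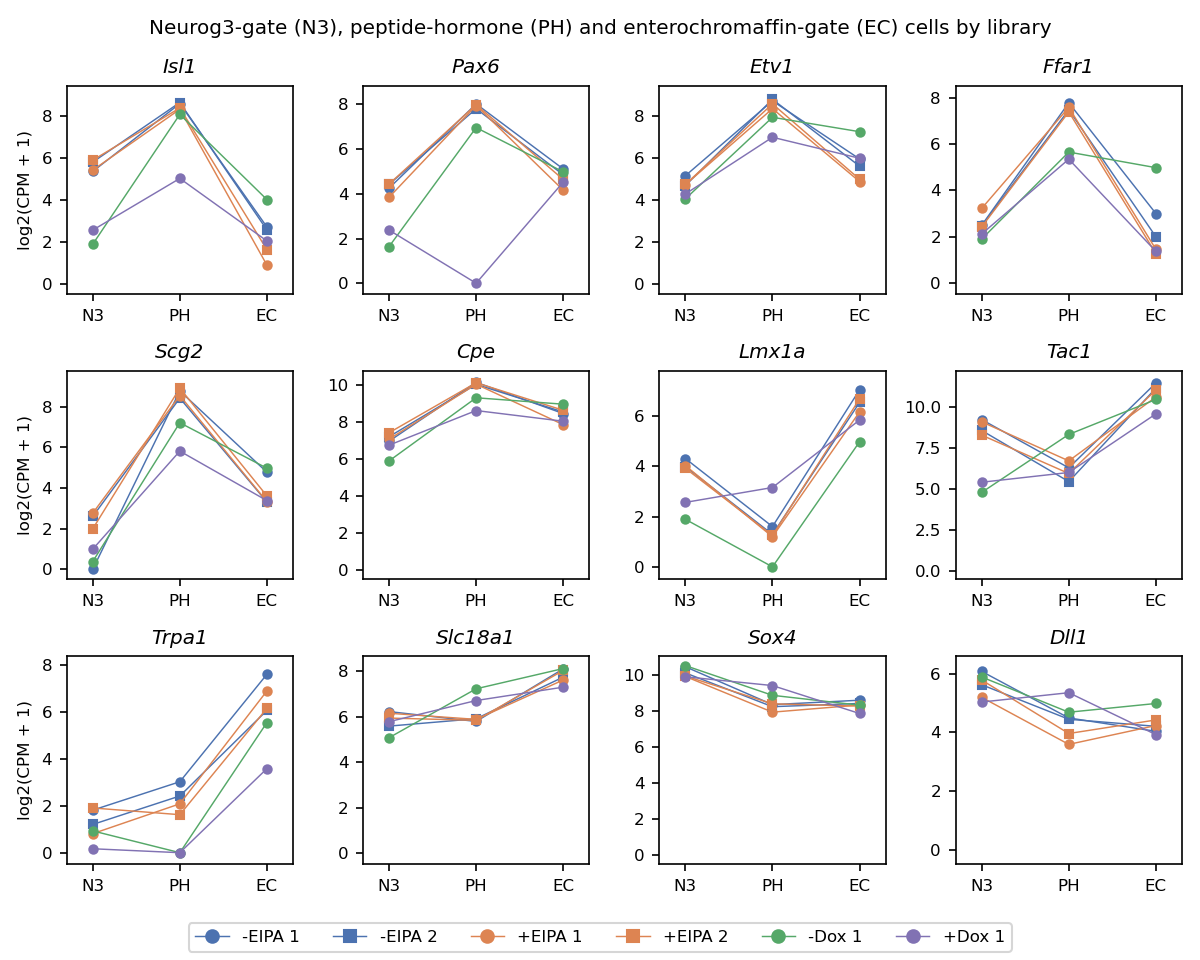
log2(CPM + 1) of selected genes in Neurog3-gate cells (N3), members (PH) and enterochromaffin-gate cells (EC), each line joining the summed cells of 1 library. Isl1, Scg2 and Ffar1 lie highest in members of every library, and Lmx1a and Tac1 in its enterochromaffin-gate cells. The Ffar1 value of the -Dox members rests on 2 UMIs.

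The last question was whether EIPA changed the members' transcripts. By edgeR without a block, 0 of 9753 genes passed an adjusted p of 0.05 (0%), with 276 at an unadjusted p under 0.05, and DESeq2 called 2, Jun and Fosb. Immediate early genes respond within minutes to growth and stress signals. Fosb was at 63.3 and 43.4 CPM in -EIPA and 14.3 and 11.1 in +EIPA (log2 -1.99 ± 0.28, adjusted p = 0.276). Jun was at 671 and 755 CPM against 380 and 334 CPM (-0.97 ± 0.16, adjusted p = 0.613). Fos was at 393 and 454 CPM against 194 and 233 CPM (-0.96 ± 0.17), and Atf3 at 118 and 262 CPM against 62.2 and 40.1 CPM (-1.90 ± 0.35). None of these overlapped between the groups. All 13 immediate early genes tested had a value below 0, with a median of -0.61 against -0.00062 over all genes, and 11 did not overlap, where 17.8% of all genes tested were lower without overlap (12.3% were higher). Lower by 0.9 or more without overlap were 64 genes of all those tested (0.656%), and Fosb, Jun, Fos and Atf3 were among them.

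The replicate numbers mark experiments 1 and 2, and with the experiment as a block edgeR called 33 genes (0.338%), 15 higher and 18 lower (0.185%). With 4 libraries and a block, little spread per gene was left. The p-values of this fit therefore lean on the spread estimated over all genes. Of the immediate early list 6 of 13 then passed as lower, among them Jun (adjusted p = 6.53e-06), Fos (9.22e-06), Fosb and Atf3 (both 1.18e-05). Sct was then higher by 0.49 ± 0.09 (adjusted p = 0.00267), and Apoa1, an apolipoprotein gene of enterocytes, by 1.09 ± 0.14 (adjusted p = 2.58e-05), with 296 and 124 CPM in -EIPA and 471 and 343 CPM in +EIPA. Within the Gip class alone, without the block, Apoa1 stood at -0.033 (log2). None of the lists of granins, prohormone processing, enteroendocrine transcription factors, receptors, exocytosis or pH regulators held a gene that passed under the block. In the enterochromaffin-gate cells of the same libraries Fos was at 570 and 560 CPM in -EIPA and 326 and 371 CPM in +EIPA, and in the Neurog3-gate cells at 281 and 309 CPM against 125 and 128 CPM. The goblet markers (9 of 9 tested below 0, median -0.49) and Paneth markers (8 of 9 below 0, median -0.74) lay lower in +EIPA members in the fit without a block, where none passed. With the block, the goblet markers Tff3 and Spink4 passed as lower by 0.49 and 0.61 on the log2 scale, the Paneth markers Itln1 and Defa24 passed as lower by 0.86 and 0.66, and the Paneth marker Defa30 passed as higher by 1.15. Absorptive lineage genes lay the other way, with a median of 0.44, 7 of 17 tested higher without overlap and 2 called higher with the block. Enterocyte markers had a median of 0.32, with 4 of 9 tested higher without overlap and 1 called higher with the block. The absorptive and enterocyte lists share genes, so these counts are not separate results. The part of those transcripts in the result was not tested.

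**Figure D5:**
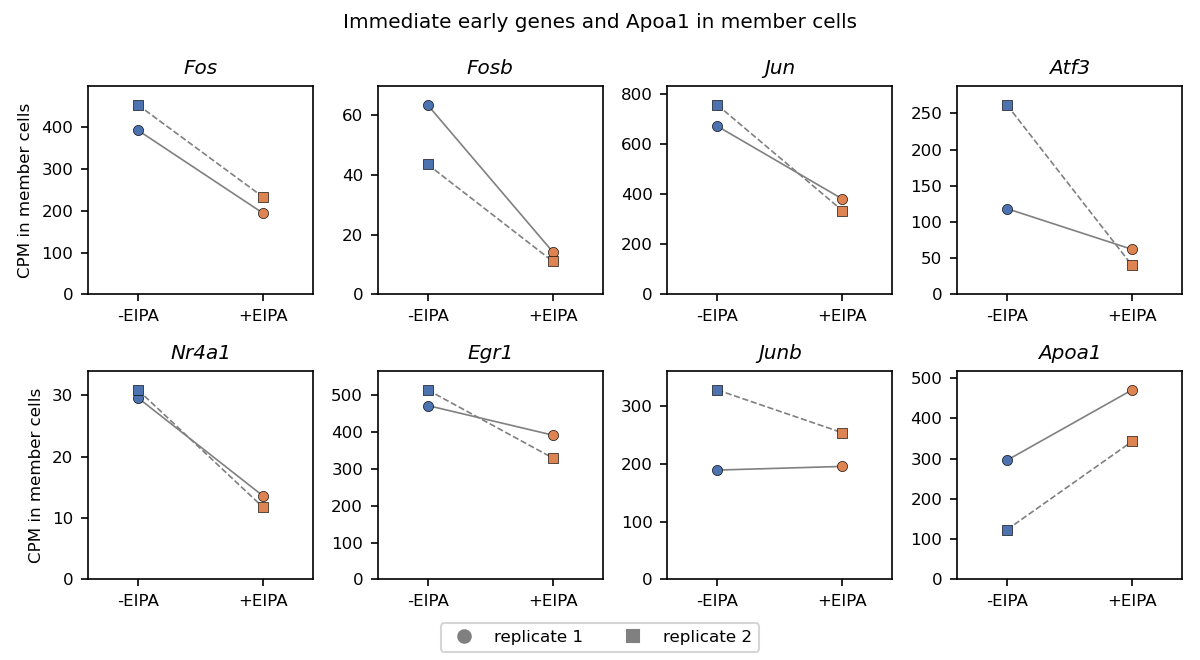
CPM of selected genes in the members of the 4 WT libraries, -EIPA against +EIPA, each point being 1 library and each line joining the libraries of 1 experiment. Fosb, Jun, Fos and Atf3 lie lower in both +EIPA libraries than in both -EIPA libraries.

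The members of -Dox (8 cells, 40532 UMIs) and +Dox (16 cells, 125948 UMIs) allow values only. Among genes with 50 or more UMIs over both libraries, a minimum chosen after the values were seen, Ccnd2, a cyclin, was at 913 CPM (643 to 1258, exact Poisson 95% interval) without doxycycline and 286 CPM (200 to 396) with it. Olfm4, a crypt stem cell gene, went the other way, from 222 CPM (102 to 422) to 1366 CPM (1169 to 1586). Isl1 stood at 271 CPM (135 to 486) and 31.8 CPM (8.65 to 81.3). Iapp was at 493 CPM (301 to 762) and 786 CPM (639 to 957), above the 50.2 to 212 CPM of the WT members. The genes with the largest ratios had few counts. Pax6, for example, had 5 UMIs in -Dox and 0 in +Dox. These intervals cover counting error and not the spread between cultures.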

How the data were processed

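Organoid cells were profiled by droplet single-cell RNA sequencing of 3′ ends, and the deposited matrices hold whole-number UMI counts per gene and cell, which the authors made with Cell Ranger 6.1.2 on mm10 (GRCm38) per the labels. The counts were used as deposited. Kept cells had 161670015 to 239368573 UMIs per library. Members and gene lists were chosen with earlier results of these data known, so no list is independent evidence.

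For each library, the counts of all cells in a gate or class were added up and tested with edgeR 4.0.16 (R 4.3.3) by its quasi-likelihood F test with TMM scaling, filterByExpr, Benjamini-Hochberg adjustment over all genes tested and a threshold of 0.05. Fold changes are log2 with the SE derived from F. The 11 genes of the choice were fitted and described without a test. The main EIPA fit had no block. Deviations of same-numbered -EIPA and +EIPA libraries correlated at r = 0.265 over 9763 genes, and the study's source data pair them as experiments 1 and 2. P-values measure only the spread between these libraries, which may be partly technical. Hormone classes were tested where 3 or more libraries had 10 or more cells on either side.

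Doublets were called by Scrublet (scanpy 1.11.5) within each library at the threshold it set, with an expected rate of 10%. A first run with its log transform switched on was discarded after its results were seen, because that option logs observed cells after scaling for depth and simulated doublets before it. Members called doublets were kept in the main analysis. Named genes were the genes of the choice, list genes that passed, and the 10 largest changes in each direction with a mean of 20 CPM or more. Such a change also had to show no overlap between the groups or, in a blocked comparison, the same direction in every library. Some genes that this rule covers, and the target of the guide RNA, are not reported here. In simulated counts, the EIPA test without the block recovered 59.5% of genes changed 2-fold (9731 genes tested) and 94.5% of those changed 3-fold (9716). The fit with the block was not simulated. The simulation gave every gene the same fixed dispersion and changed only genes above 20 CPM. Its percentages therefore do not give the recovery in the real libraries. Intervals are exact at 95% and cover counting error only. DESeq2 1.42.0 was an alternative. The study tested single cells, and its method was not used here.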

Additional observations from a re-analysis of the deposited data

Results flagged for a closer look

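The share of members moved in opposite directions in the 2 experiments. The +EIPA share over the -EIPA share was 1.48 in experiment 1 (0.928% in -EIPA, 1.37% in +EIPA) and 0.7605 in experiment 2 (1.49% and 1.14%). With 1 library a group in each experiment, this difference was not tested.

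Hormone transcripts also lay outside the members and outside both other gates. These other kept cells held 21.6% of the UMIs of the 7 hormones in replicate 1 of -EIPA, 40.0% in replicate 2 of -EIPA, 25.4% in replicate 1 of +EIPA, 38.2% in replicate 2 of +EIPA, 48.5% in -Dox and 44.2% in +Dox. In +Dox, 451 of 454 Nts UMIs were in such cells, and a single cell held 166 of them. Some of the other kept cells were rich in hormone transcripts. In the WT libraries 13, 134, 59 and 82 of them (same order) held 50 or more UMIs of the 7 hormones, with 4 in -Dox and 6 in +Dox. The shares of members leave these cells out.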

How the results depend on the processing

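The EIPA call count depended on the setting. It was 0 with TMM, RLE or library size scaling, without called doublets, with doubled limits, with thinned cells and within the Cck or Gip class alone, 2 with DESeq2, 38 without the filter on low counts, 33 with the replicate block, and 4 to 12 when a replicate was left out (12 without replicate 1 of -EIPA, 4 without replicate 2 of -EIPA, and 10 without either +EIPA replicate). The Cck class count moved from 188 genes to 48 with DESeq2, 363 without the filter and 116 with classes limited to cells with 80% of hormone UMIs in the leading hormone. The Gip and Ghrl counts fell from 640 and 498 to 207 and 226 with DESeq2. The cause of these changes was not tested. Counts against the enterochromaffin gate (869 to 1905) and the Neurog3 gate (2973 to 4926) stayed within 1.5 times the reported 1279 and 4153. The share ratio ran from 0.839 without replicate 1 of -EIPA to 1.35 without replicate 2 of -EIPA, and was 0.938 without replicate 1 of +EIPA. The -Dox share was 0.00631% with each cell thinned to 5000 UMIs, and the +Dox share was 0.0497% with doubled limits. Of 411 values for single named genes under other settings, 385 kept direction and side of the threshold, 22 newly passed, 2 no longer passed (Gpr119 and Iapp in the Gip class, with DESeq2) and 2 changed sign. Junb under EIPA ran from -0.52 without replicate 1 of -EIPA to 0.28 without replicate 2 of -EIPA, and Apoa1 became -0.033 within the Gip class alone. The CRISPR members had few UMIs, with 40532 in all from 8 cells of -Dox and 125948 from 16 cells of +Dox. Library size scaling and the class fits alone were added after the data were seen.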

Other observations

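Scg3, a granin that helps sort cargo into granules, followed the experiment number in the members, with 90.8 CPM in replicate 1 and 15.9 CPM in replicate 2 of -EIPA and 92.0 CPM and 20.1 CPM in replicates 1 and 2 of +EIPA. The Neurog3-gate cells showed 15.9, 5.36, 16.9 and 5.27 CPM in the same order. Cadps, which primes granules for release, was at 68.4, 17.4, 46.0 and 22.8 CPM in members. These genes were chosen after their values were seen, and the difference between experiments was not tested.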
